A study of Mus musculus with 2 samples.

Results

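The mitochondrial carriers of the Slc25 family were examined in total RNA from the remote left ventricle of male C57BL/6 mice. The tissue was taken 7 days after permanent ligation of the proximal left anterior descending coronary artery, which both genotypes had undergone, with scar and border zone removed. Members were all gene symbols made of Slc25a and a number, which gave 47 of the 24542 symbols in the deposited table. NRK-2 knockout mice, which lack the muscle nicotinamide riboside kinase encoded by Nmrk2, were set against littermate controls. The labels give a single sample for each genotype, whereas the table has 3 numbered columns of each, called here KO 1 to 3 and control 1 to 3. Whether these came from separate mice is not stated in the sources used here, and neither are the mice's age and the cells in which the gene was disrupted. All p-values therefore rest on the spread between libraries alone, and that spread, although larger than counting error, may be technical.

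Mitochondrial carriers are proteins of the inner mitochondrial membrane, with a few in other membranes, that exchange nucleotides, phosphate, amino acids, keto acids, acylcarnitines and cofactors between cytosol and matrix. In heart muscle the adenine nucleotide carrier brings ADP in and ATP out, the phosphate carrier supplies phosphate for ATP synthesis, and the malate-aspartate shuttle and carnitine carrier feed reducing power and fatty acids to the matrix. Slc25a51 is the carrier that brings NAD, the product of the pathway NRK-2 belongs to, into mitochondria.

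Library depth lay between 26975513 and 33086384 counted reads in the libraries labelled KO and between 22377348 and 22831189 in the control libraries. Nmrk2 had 808, 9 and 0 reads in KO 1, 2 and 3, against 308, 270 and 118 in control 1, 2 and 3. KO 1 thus went against its label, and directions given here for the knockout rest on libraries labelled KO. Libraries of a genotype differed beyond counting error. The median chi-square per degree of freedom over genes was 9.61 between KO 1 and KO 2, 10.8 between KO 2 and KO 3, and 6.17 between KO 1 and KO 3. It was 19.1 between control 1 and control 3, 15.2 between control 2 and control 3, and 3.88 between control 1 and control 2. Control 3 thus stood apart from the other control libraries, and KO 2, by a smaller margin, from the other KO libraries. Myl4, an atrial myosin light chain, had 9137, 223 and 69 reads in KO 1, 2 and 3, against 4165, 3653 and 57 in control 1, 2 and 3. Atrial light chain reads were thus high in KO 1, control 1 and control 2, and their part in the results was not tested. The 10 cardiomyocyte markers all had reads in every library, and their CPM (counts scaled to library total and TMM factor) summed to 42091, 25066 and 43279 in KO 1, 2 and 3. In control 1, 2 and 3 they summed to 82320, 78115 and 48143. All 10 had lower fitted levels in KO, as did 49% of all genes, and 0 passed the test. The 8 fibroblast markers summed to between 28657 and 39767 CPM in KO and between 6547 and 18025 CPM in control. Col1a1, Col1a2, Col3a1 and Postn made up most of this sum. All 8 had higher fitted levels in KO, but Pdgfra and Dcn differed little. They averaged 220 and 1599 CPM in KO, against 186 and 1468 CPM in control (adjusted p = 0.633 and 0.761). The part of the cardiomyocyte and fibroblast markers in the results on carriers was not tested, and in bulk tissue fewer cells of a type and less RNA per cell cannot be told apart.

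The most abundant carriers stood lower in the libraries labelled KO, but few passed the test. Of the 47 members, 40 were abundant enough to be tested, and 3 fell and 0 rose (edgeR, adjusted p under 0.05 over all 14466 genes tested). Over all genes, 1.09% fell and 2.61% rose, or 3.7% in either direction. The fallers included Slc25a42, a coenzyme A carrier, and Slc25a22, a glutamate carrier. At an unadjusted p under 0.05, 16 members were lower and 2 were higher, against 13.5% and 12.3% of all genes. With DESeq2, 13 members fell and 2 rose, against 9.94% and 8.26% of all genes. The median log2 fold change of the 40 members was -0.36, beside 0.01 over all genes, and 28 of the 40 had a negative value, as did 49% of all genes.

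The calls depended on single libraries. Each of the 3 fallers lost its call when any one library other than control 3 was left out, and 0 members then passed in either direction. At an unadjusted p under 0.05, 13 members were lower without KO 1, 12 without KO 2 and 15 without KO 3, against 10.7%, 8.04% and 11.6% of all genes. Without control 1 there were 12 and without control 2 there were 11, against 8.1% and 7.52% of all genes. In each of these 5 fits 2 members were higher, against 9.32%, 7.5%, 11.2%, 9.52% and 8.69% of all genes in the same order. Without control 3, 16 members fell and 2 rose, against 12.9% and 11.6% of all genes in that fit. In CPM, all 3 KO libraries lay below all 3 control libraries for 14 of the 40 members, against 14.5% of all genes, and above them for 5, against 16.4%.

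**Figure D1:**
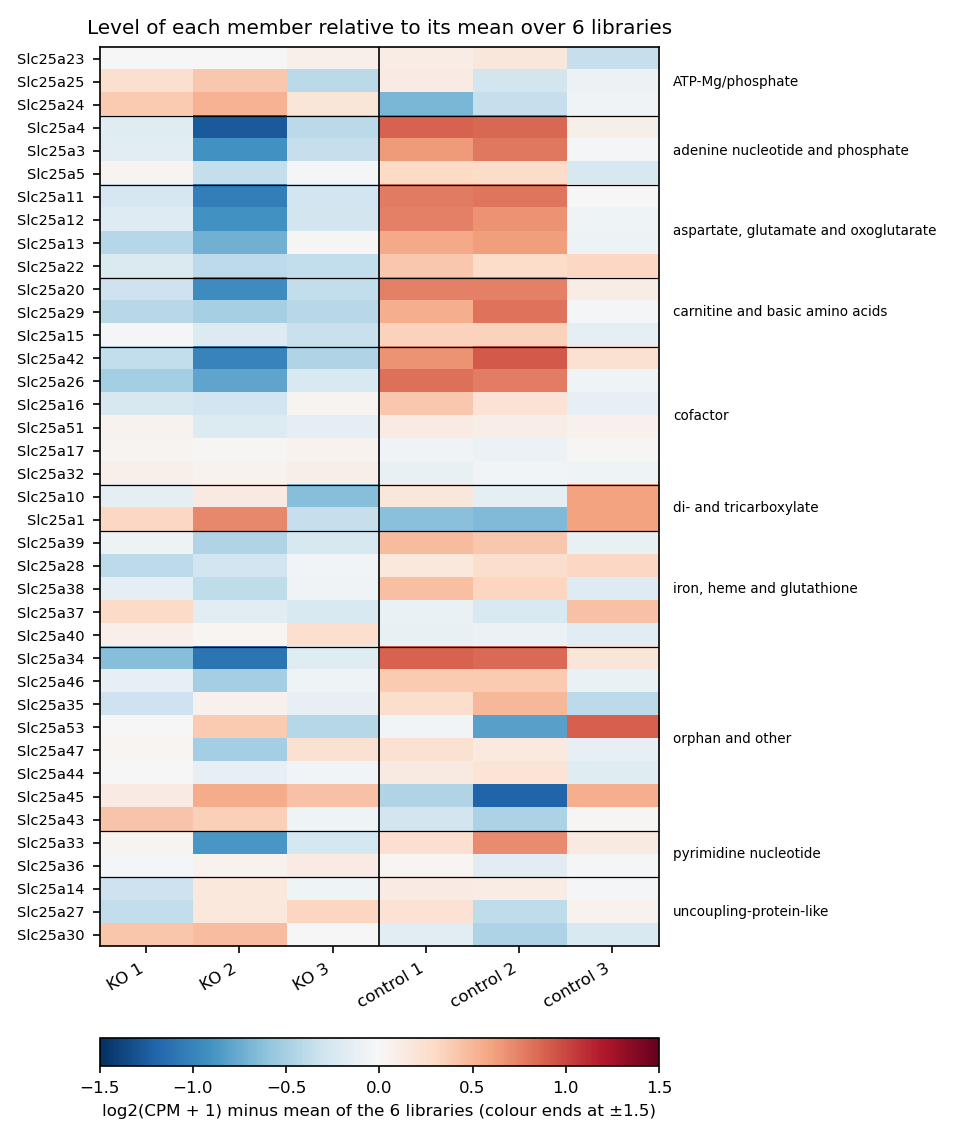
Level of 39 tested members (rows, grouped by what they carry) in the 6 libraries (columns), as log2(CPM + 1) minus the member's mean over the libraries. KO 2 is the lowest library for 19 of the 40 members, control 1 is the highest for 15, and control 3 lies between the KO libraries and the other control libraries in the summed FPKM of the adenine nucleotide, aspartate and carnitine classes.

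Levels of different members were compared as FPKM, the deposited value scaled to transcript length and library depth. Slc25a4, the adenine nucleotide carrier of heart and muscle, was by far the most abundant member. It stood at 2724, 1360.2 and 2319.6 FPKM in KO 1, 2 and 3, against 5128, 5047 and 3461 FPKM in control 1, 2 and 3. The groups did not overlap. In CPM its means were 2333 ± 821 in KO and 5375 ± 1524 in control (SD, n = 3 libraries each), a fitted ratio of 0.434 that did not pass (log2 fold change -1.20, SE 0.36, adjusted p = 0.10). Slc25a4 did pass with DESeq2 (adjusted p = 0.00343) and without control 3 (0.0304). Slc25a3, the phosphate carrier, was also lower in every KO library, at 399, 251 and 349 FPKM in KO, against 621, 691 and 461 FPKM in control. It did not pass either (log2 fold change -0.94, SE 0.28, adjusted p = 0.101), though it passed with DESeq2 (0.00794) and without control 3 (0.0221).

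Slc25a5, the adenine nucleotide carrier found in most other cell types, differed little between the genotypes. It had 217, 174 and 208 FPKM in KO and 233, 230.4 and 189.5 FPKM in control, so the groups overlapped (log2 fold change -0.23, SE 0.19, adjusted p = 0.488). The FPKM ratio of Slc25a4 to Slc25a5 was 12.5, 7.81 and 11.1 in KO 1, 2 and 3, against 22.0, 21.9 and 18.3 in control 1, 2 and 3. Every KO library had a lower ratio than every control library, and the mean log2 ratio was 1.0 lower. The exact two-sided permutation p was 0.1, the smallest possible with 3 libraries against 3 (0.15 after adjustment over the 3 ratios computed). The cardiomyocyte marker sum was also lower in every KO library than in any control library, and its part in this ratio was not tested. The ratio of Slc25a4 to Slc25a3 was 6.82, 5.42 and 6.64 in KO and 8.26, 7.31 and 7.50 in control, again without overlap (exact p = 0.1). Slc25a4 and Slc25a5 are close relatives, and how shared reads were divided is not stated in the sources used here. Slc25a31, the testis form, had 6 or 7 reads in each KO library and 3 to 9 in each control library and was not tested.

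**Figure D2:**
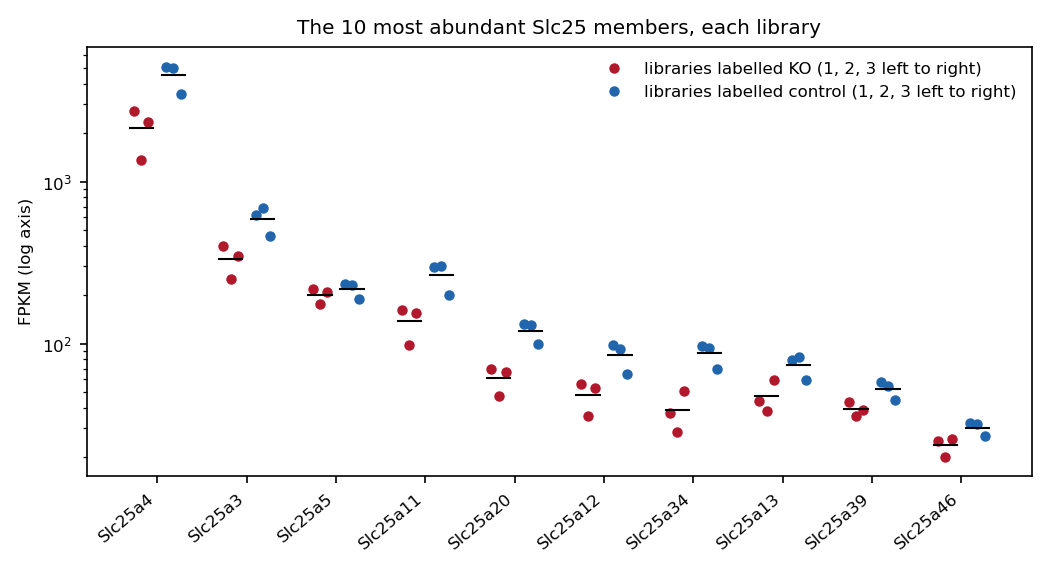
FPKM (log axis) of the 10 most abundant members in each library, with bars at the mean of 3 libraries. Slc25a4 lies above all others in every library. Slc25a5, Slc25a13, Slc25a39 and Slc25a46 are the 4 of the 10 whose KO and control libraries overlap in CPM. In the FPKM plotted here, Slc25a5 and Slc25a13 overlap, whereas for Slc25a39 and Slc25a46 every KO library lies below every control library.

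Summed over all 47 members, the family reached 4001, 2323 and 3544 FPKM in KO 1, 2 and 3, against 6999, 6973 and 4928 FPKM in control 1, 2 and 3. Slc25a4 alone made up 58.5% to 68.1% of this sum in KO and 70.2% to 73.3% in control. Without Slc25a4 the family still summed to 963 to 1277 FPKM in KO and 1467 to 1926 FPKM in control. The difference thus ran through other abundant members too. The share of Slc25a5 was 5.43% to 7.50% in KO and 3.30% to 3.85% in control, while that of Slc25a11 was 4.0% to 4.37% in KO and 4.06% to 4.29% in control. All 9 tested members with a mean above 40 FPKM had negative fitted fold changes, with a median of -0.94 on the log2 scale. The 7 tested members from 10 to 40 FPKM had a median of -0.19, with 4 lower and 3 higher. The 24 tested members under 10 FPKM had a median of -0.18, with 15 lower and 9 higher. These abundance limits were set after the values had been seen, on means over all 6 libraries. Slc25a34 and Slc25a39 averaged 39.1 and 39.4 FPKM in KO, against 87.0 and 52.5 FPKM in control. They thus passed 40 FPKM only through control, so their negative sign is in part built into the limit. No share was computed over all genes of like abundance.

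**Figure D3:**
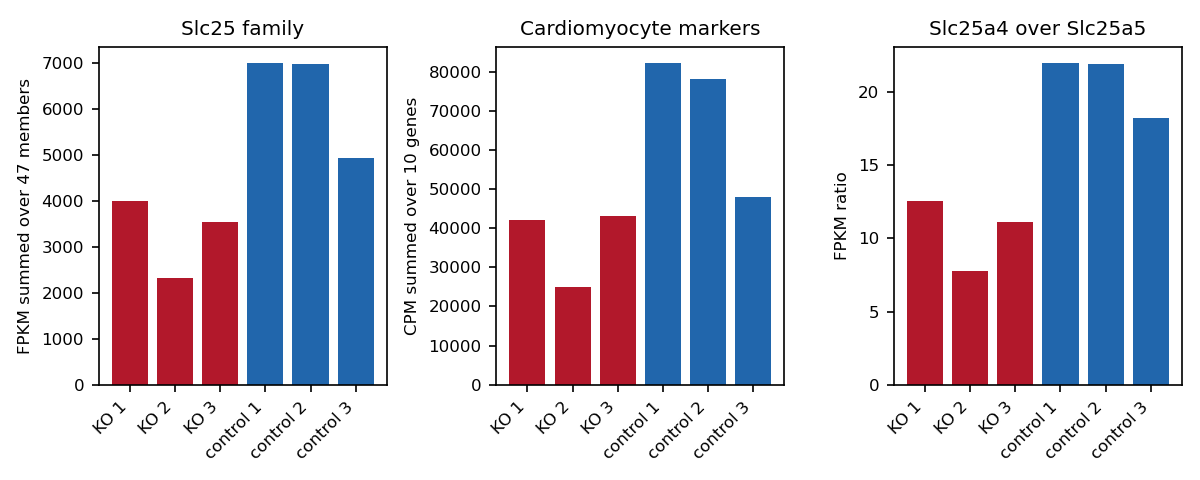
Bars give, for each library, the FPKM summed over the 47 members (left), the CPM summed over 10 cardiomyocyte markers (middle) and the FPKM ratio of Slc25a4 to Slc25a5 (right). KO 2 is lowest in all panels, and control 3 is the lowest of the control libraries in all panels.

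The malate-aspartate shuttle moves reducing equivalents into mitochondria with the oxoglutarate carrier Slc25a11 and the aspartate-glutamate carriers Slc25a12 and Slc25a13. Slc25a11 was at 297, 173 and 289 CPM in KO 1, 2 and 3, against 610.2, 619 and 352 CPM in control 1, 2 and 3. The groups did not overlap, but the gene did not pass (log2 fold change -1.06, SE 0.30, adjusted p = 0.0918). Slc25a12 was at 164, 99.2 and 155 CPM in KO, against 318, 299.8 and 179.5 CPM in control (log2 fold change -0.93, adjusted p = 0.10). Slc25a13 was at 137, 112 and 187 CPM in KO, against 275, 287 and 176 CPM in control. The groups overlapped, as KO 3 lay above control 3 (log2 fold change -0.76, adjusted p = 0.127). Slc25a11, Slc25a12 and Slc25a13 passed with DESeq2 (adjusted p = 0.00492, 0.0110 and 0.0298) and without control 3 (0.0198, 0.0202 and 0.0266). In FPKM the ratio of Slc25a13 to Slc25a12 was 0.785, 1.06 and 1.13 in KO and 0.811, 0.898 and 0.919 in control, which overlapped (exact permutation p = 0.4).

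Slc25a22, which brings glutamate into the matrix, was 1 of the 3 fallers and had the smallest adjusted p of the family. Its libraries held 14.2, 12.5 and 12.7 CPM in KO 1, 2 and 3, against 22.4, 20.5 and 20.9 CPM in control 1, 2 and 3. Control 3 lay with the other control libraries here, unlike for Slc25a4 or Slc25a11. The fitted ratio was 0.618 (log2 fold change -0.69, SE 0.13, adjusted p = 0.0406), and the adjusted p lay between 0.0213 without control 3 and 0.166 without KO 2 when 1 library was left out. The gene lies on chromosome 7 from 141429749 to 141437874 (mm10). Of its 2 transcripts in the table, the shorter had 121, 0 and 140 reads in KO 1, 2 and 3 and 150, 97 and 156 in control 1, 2 and 3. Neither transcript passed alone (adjusted p = 0.833 for the shorter and 0.311 for the longer). Slc25a18, the other glutamate carrier, had 0 to 3 reads per library and was not tested.

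Slc25a20, the carnitine-acylcarnitine carrier that brings long-chain fatty acids in for oxidation, was at 124, 79.3 and 119 CPM in KO, against 260.1, 259.8 and 166 CPM in control. The groups did not overlap, and it did not pass here (log2 fold change -1.09, SE 0.25, adjusted p = 0.0631). It passed with library totals in place of TMM factors (adjusted p = 0.0467), with limma on log2(FPKM + 1) (0.0463), with DESeq2 (0.000591) and without control 3 (0.0171). Slc25a29, a carrier of basic amino acids, averaged 4.53 CPM in KO and 9.52 CPM in control (log2 fold change -1.07, adjusted p = 0.0773). Slc25a15, the ornithine carrier, averaged 18.6 CPM in KO and 24.6 CPM in control and overlapped (adjusted p = 0.209), and Slc25a2, its close relative, had 3 to 11 reads in KO and 4 to 12 in control.

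Slc25a42, which exchanges coenzyme A for adenine nucleotides, fell to 12.5, 7.67 and 11.8 CPM in KO 1, 2 and 3, against 26.8, 31.8 and 19.5 CPM in control 1, 2 and 3. The groups did not overlap, and its fitted ratio of 0.409 was the lowest of the 40 members (log2 fold change -1.29, SE 0.26, adjusted p = 0.0471). Slc25a42 lies on chromosome 8 from 70184340 to 70212281 (mm10).

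Slc25a26, which carries the methyl donor S-adenosylmethionine, was at 9.32, 7.50 and 11.6 CPM in KO, against 25.2, 24.2 and 13.1 CPM in control. Its groups did not overlap, yet it did not pass (log2 fold change -1.14, SE 0.29, adjusted p = 0.0764), though it passed with DESeq2 (0.00546) and without control 3 (0.0171). Slc25a51, the NAD carrier, was at 116, 97.4 and 102 CPM in KO and at 123, 120.4 and 118 CPM in control. The groups did not overlap in CPM but did in FPKM, where KO 1 at 26.3 lay above control 1 at 24.9. The difference was small and did not pass (log2 fold change -0.19, SE 0.11, adjusted p = 0.330). Slc25a16, linked to coenzyme A transport, averaged 42.5 CPM in KO and 53.9 CPM in control (adjusted p = 0.258). The peroxisomal carrier Slc25a17 and the folate and FAD carrier Slc25a32 were slightly higher, with log2 fold changes of 0.08 and 0.15 and adjusted p = 0.661 and 0.406.

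**Figure D4:**
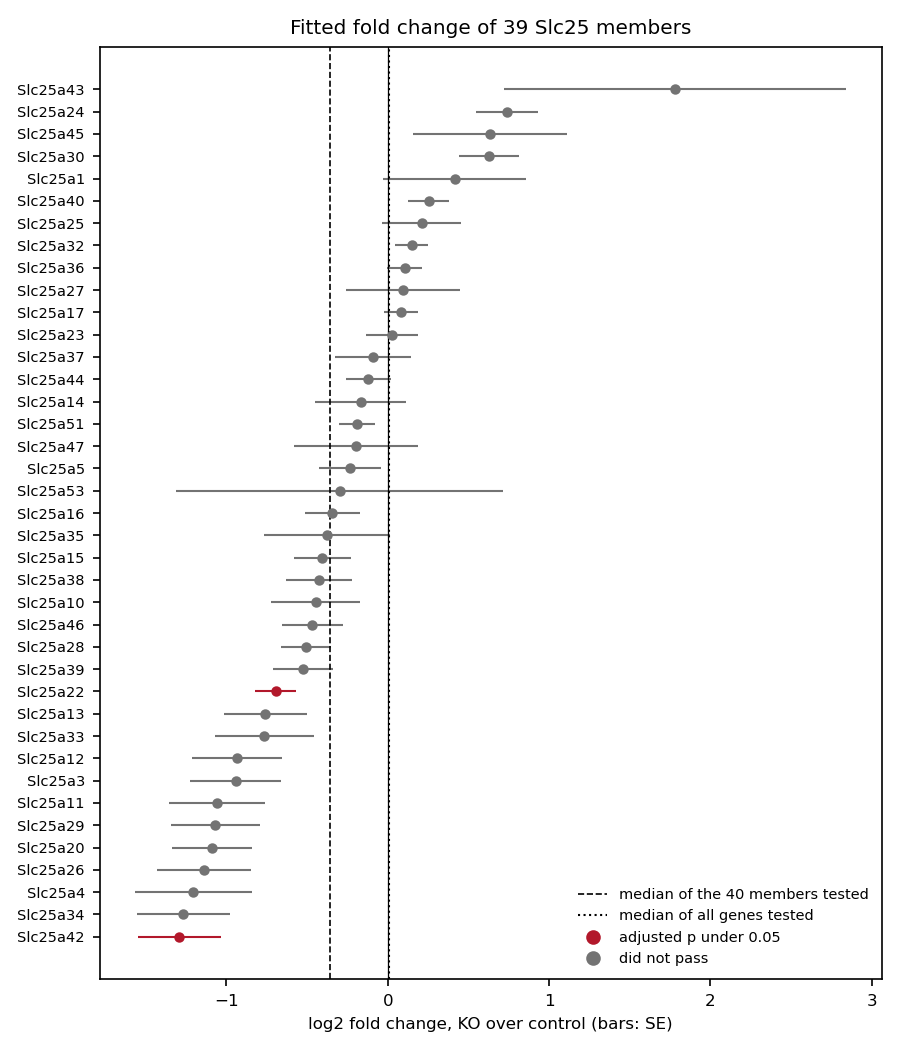
Fitted log2 fold change (KO over control) of 39 tested members with its SE. Slc25a42 and Slc25a22 (red) passed the test, the median of all 40 tested members is -0.36 and that of all genes is 0.01.

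The ATP-Mg/phosphate carriers, mostly calcium-regulated exchangers that set the adenine nucleotide pool of the matrix, were the class in which every tested member had a positive fold change. Slc25a24 was at 39.9, 43.8 and 34.5 CPM in KO 1, 2 and 3, against 18.3, 23.5 and 29.0 CPM in control 1, 2 and 3. KO lay above control without overlap, but the gene did not pass (log2 fold change 0.74, SE 0.19, adjusted p = 0.0782), though it passed with DESeq2 (0.0143) and without control 3 (0.0192). Slc25a25 and Slc25a23 had log2 fold changes of 0.21 and 0.03 (adjusted p = 0.630 and 0.936), and Slc25a41 and Slc25a54 had 0 reads in every library, which allows up to 3 reads in each. Slc25a30, a relative of the uncoupling proteins, was at 18.8, 19.4 and 13.8 CPM in KO, against 12.2, 9.78 and 11.7 CPM in control (log2 fold change 0.63, adjusted p = 0.0995, and 0.0392 with DESeq2). Its relatives Slc25a14 and Slc25a27 differed by -0.17 and 0.10 on the log2 scale (adjusted p = 0.744 and 0.892).

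Among carriers of iron, heme precursors and glutathione, 4 of 5 had negative fold changes and 0 passed. Slc25a39, which imports glutathione, was at 73.0, 56.0 and 64.9 CPM in KO, against 107, 102 and 70.8 CPM in control (log2 fold change -0.53, adjusted p = 0.139, and 0.0205 without control 3). Its paralogue Slc25a40 was higher in every KO library than in any control library, at means of 18.7 and 15.7 CPM (log2 fold change 0.25, adjusted p = 0.265). The mitoferrins Slc25a28 and Slc25a37, which import iron, had log2 fold changes of -0.51 and -0.09, and the glycine carrier Slc25a38, needed for heme synthesis, had -0.42 (adjusted p = 0.104, 0.841 and 0.247). The erythroid markers summed to 132 to 834 CPM in KO and 263 to 689 CPM in control, and 0 of the 6 tested passed.

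Slc25a1, the citrate carrier, overlapped widely between the genotypes. It was at 11.7, 16.7 and 7.20 FPKM in KO 1, 2 and 3, against 5.23, 5.09 and 15.3 FPKM in control 1, 2 and 3 (adjusted p = 0.597). The dicarboxylate carrier Slc25a10 also overlapped (log2 fold change -0.45, adjusted p = 0.349), and Slc25a21, the oxodicarboxylate carrier, had 0 reads in every library. Of the pyrimidine nucleotide carriers, Slc25a33 averaged 8.32 CPM in KO and 14.1 CPM in control (log2 fold change -0.77, adjusted p = 0.174), and Slc25a36 differed by 0.10 on the log2 scale (adjusted p = 0.573).

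Members with other or unsettled substrates ranged from the second lowest to the highest fitted value. Slc25a34, an orphan carrier, was at 100.2, 72.2 and 138 CPM in KO 1, 2 and 3, against 288, 281 and 178 CPM in control 1, 2 and 3. Its groups did not overlap, yet it did not pass (log2 fold change -1.27, SE 0.29, adjusted p = 0.0636), though it passed with limma on log2(FPKM + 1) (0.0465), with DESeq2 (0.000413) and without control 3 (0.0178). Slc25a46, an outer membrane protein that takes part in mitochondrial dynamics, was at 109, 82.7 and 113 CPM in KO and 156, 155 and 111 CPM in control (log2 fold change -0.47, adjusted p = 0.178, and 0.0354 without control 3). Slc25a44, the carrier of branched-chain amino acids, was at 9.13 ± 0.16 FPKM in KO and 9.27 ± 0.51 FPKM in control (SD, n = 3 libraries each; adjusted p = 0.626).

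Slc25a45 was at 9.88, 13.6 and 12.5 CPM in KO and 6.28, 3.32 and 13.6 CPM in control, control 3 being as high as KO (log2 fold change 0.63, adjusted p = 0.444, and 0.0321 without control 3). Slc25a43 had the highest fitted value of the family on few reads, 25, 28 and 9 in KO against 3, 0 and 10 in control (log2 fold change 1.78, SE 1.06, adjusted p = 0.333). Slc25a35, Slc25a47 and Slc25a53 had log2 fold changes of -0.38, -0.20 and -0.30 with adjusted p of 0.584 to 0.883, and Slc25a48 had 0 reads in every library.

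The stretches before the transcription start are shown for Slc25a4 and Slc25a3, whose levels make up most of the family's sum, for Slc25a42 and Slc25a22, which fell, and for Slc25a34, the single member with an estrogen-related receptor half-site there. They come from RefSeq (GRCm38.p6, the assembly also called mm10), in which 36 of the 47 members had 46 starts. Each stretch holds the 250 bases upstream of the start, 5′ to 3′ on the gene's strand, and capitals mark a motif found on either strand.
Slc25a4 upstream region, chr8:46211063-46211312, minus strand: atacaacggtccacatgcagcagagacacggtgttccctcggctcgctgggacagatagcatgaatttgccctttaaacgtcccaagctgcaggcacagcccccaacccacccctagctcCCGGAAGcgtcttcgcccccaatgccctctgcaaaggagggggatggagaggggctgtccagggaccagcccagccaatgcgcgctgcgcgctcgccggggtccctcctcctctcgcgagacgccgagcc
Slc25a3 upstream region, chr10:91123968-91124217, minus strand: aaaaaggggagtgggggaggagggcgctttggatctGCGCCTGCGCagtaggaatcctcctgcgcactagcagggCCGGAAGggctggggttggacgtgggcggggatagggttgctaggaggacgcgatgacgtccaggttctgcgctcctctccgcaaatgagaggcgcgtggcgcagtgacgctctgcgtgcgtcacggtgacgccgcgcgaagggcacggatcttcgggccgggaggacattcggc
Slc25a34 upstream region, chr4:141623835-141624084, minus strand: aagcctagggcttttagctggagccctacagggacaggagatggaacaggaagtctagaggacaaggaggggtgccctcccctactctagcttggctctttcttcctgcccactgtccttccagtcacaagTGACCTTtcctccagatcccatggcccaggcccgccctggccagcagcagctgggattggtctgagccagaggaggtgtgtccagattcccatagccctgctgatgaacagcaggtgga
Slc25a42 upstream region, chr8:70212282-70212531, minus strand: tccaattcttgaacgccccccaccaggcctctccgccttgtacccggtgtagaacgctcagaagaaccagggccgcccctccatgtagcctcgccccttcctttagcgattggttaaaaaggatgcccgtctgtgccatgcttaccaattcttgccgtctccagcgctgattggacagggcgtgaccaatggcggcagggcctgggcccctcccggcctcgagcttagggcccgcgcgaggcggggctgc
Slc25a22 upstream region, chr7:141437875-141438124, minus strand: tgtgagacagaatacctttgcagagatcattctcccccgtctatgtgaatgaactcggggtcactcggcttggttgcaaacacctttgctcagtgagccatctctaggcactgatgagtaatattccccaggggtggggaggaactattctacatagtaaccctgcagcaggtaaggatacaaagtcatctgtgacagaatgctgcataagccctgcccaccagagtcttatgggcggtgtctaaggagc
Motifs of factors known to act on mitochondrial genes were searched on both strands from 250 bases before to 50 after each start. The estrogen-related receptor half-site AAGGTCA was found in 1 of the 46 member promoters, that of Slc25a34, and in 4.72% of all 32851 promoters. In Slc25a34 it reads on the opposite strand and begins 119 bases before the start. The NRF-1 motif, searched as a core of 10 letters with 1 of them open, was found in 2 member promoters, those of Slc25a3 and Slc25a31, and in 4.6% of all. The ETS core CCGGAAG, bound by GABPA, was found in 7 member promoters, among them those of Slc25a4, Slc25a3 and Slc25a20, and in 8.86% of all. The E-box CACGTG was found in 8 member promoters of 7 members and in 7.15% of all. None of these motifs overlapped another in the stretches printed, and those of Slc25a42 and Slc25a22 held none of the 4. For Slc25a22 only the stretch of the start farthest upstream is printed. The stretches before its other starts, chr7:141435376-141435625 and chr7:141434595-141434844, held none of the 4 either.

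Genes that work with the carriers were read from lists. Of the carrier family's relatives under other symbols, 4 were tested and 0 passed. Ucp3, the uncoupling protein of muscle, averaged 3.82 ± 1.92 FPKM in KO and 11.9 ± 1.47 FPKM in control (log2 fold change -1.74, adjusted p = 0.0674). The more abundant Ucp2 had a positive fold change, at 34.3 ± 8.76 FPKM in KO and 23.7 ± 13.1 FPKM in control (log2 fold change 0.47, adjusted p = 0.421). Mtch1, an outer membrane insertase, averaged 93.4 ± 7.06 FPKM in KO and 62.7 ± 4.14 FPKM in control (log2 fold change 0.47, adjusted p = 0.0970), and its paralogue Mtch2 42.7 ± 5.48 FPKM in KO and 57.8 ± 4.58 FPKM in control (log2 fold change -0.55, adjusted p = 0.119; SD, n = 3 libraries each).

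The machinery that imports carriers through the TOM complex and inserts them with the small TIM chaperones and Timm22 had 15 members tested. All 15 had lower fitted levels in KO, with a median log2 fold change of -0.39, and 0 passed. Of 22 other passages of the mitochondrial membranes 16 were lower and 6 higher, with a median of -0.36 and 0 past the test. Of all genes tested, 49% had a negative fitted fold change. The outer membrane channel Vdac1 averaged 224 ± 40.5 FPKM in KO and 371 ± 67.7 FPKM in control (adjusted p = 0.103), and the pyruvate carrier subunit Mpc1 246 ± 67.1 FPKM in KO and 375 ± 59.7 FPKM in control (adjusted p = 0.167).

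Of 21 enzymes that use or feed the carriers, 1 fell and 0 rose, against 1.09% and 2.61% of all genes. By fitted value 14 were lower and 7 higher, where 49% of all genes were lower, and the median was -0.66. The faller was Gpd1, the cytosolic enzyme of the glycerol phosphate shuttle, at 19.1 ± 1.75 FPKM in KO and 28.2 ± 5.39 FPKM in control (log2 fold change -0.66, adjusted p = 0.0411). Ckmt2, the mitochondrial creatine kinase that takes up exported ATP, averaged 857 ± 258 FPKM in KO and 1768 ± 504 FPKM in control (adjusted p = 0.111). Mdh1, the cytosolic malate dehydrogenase, averaged 636 ± 138 FPKM in KO and 1109 ± 222 FPKM in control (adjusted p = 0.104; SD, n = 3 libraries each).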

How the data were processed

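Per the labels' protocols, libraries were stranded and made from total RNA. The submitters' processing notes name mm10, Bowtie2 and HISAT2, with neither version nor role. The counting program, annotation release and use of strand were not stated in the sources used here. Per the file headers, the authors deposited counts (whole numbers) and FPKM per library for 36780 RefSeq transcripts, besides transcript length in bases. Over transcripts with at least 50 reads, deposited FPKM over FPKM recomputed from counts lay from 0.970 to 0.988 (1st to 99th percentile).

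Columns beginning with KO and C were given to the knockout and control sample. Counts were summed per symbol and tested with edgeR 4.0.16 in R 4.3.3 (quasi-likelihood, TMM scaling, filterByExpr, Benjamini-Hochberg adjustment over 14466 genes). DESeq2 1.42.0 and limma 3.58.1 served as alternatives. Ratios were tested by exact permutation. On simulated counts for 14253 genes, 36 of 100 genes changed 2-fold and 96 of 100 changed 4-fold were called, with 14 of 14053 unchanged genes. The changed genes were drawn only from genes above a minimum mean CPM, and each gene's counts were drawn independently of the others. A count of 0 allows up to 3 reads, and such limits cover counting error only.

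Values in every library were given for members past the test, the 10 most abundant, the 4 highest and 4 lowest fold changes, and Slc25a51, which named 18 members here. The values of 1 member that the rule also takes are not reported here, though it is in all counts and medians. Values of other members were chosen after they had been seen. Members, lists and tests were chosen with earlier results of these data known. Of the lists, 15 of 16 import genes, 22 of 23 other passages, 5 of 5 relatives and 21 of 21 enzymes were found. Adipocyte markers summed to 308 to 785 CPM in KO and 405 to 1371 in control, brown adipocyte markers to 49.8 to 73.0 in KO and 18.3 to 42.6 in control, atrial markers to 2369 to 3039 in KO and 129 to 955 in control, endothelial markers to 918 to 1214 in KO and 918 to 1218 in control, and macrophage markers to 848 to 1105 in KO and 426 to 1085 in control. Postn of the fibroblast list and Dio2 of the brown adipocyte list rose, and 0 other tested markers passed. The atrial sum was higher in KO, where Nppa alone had 2419, 2349.7 and 3022 CPM, against 442, 572 and 108 CPM in control, while the list's median log2 fold change was -0.79.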

Additional observations from a re-analysis of the deposited data

How the results depend on the processing

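The count of fallers, 3, was 13 with DESeq2, 0 without a filter on low counts, 0 with limma on log2(FPKM + 0.1), 0 with the library number as a replicate block, and 0 to 16 when a single library was left out, 16 being the value without control 3. The count of risers, 0, was 2 with DESeq2 and 0 to 2 when a library was left out, with 2 only without control 3. The median log2 fold change of the members, -0.36, was -0.18 with limma on log2(FPKM + 1) and -0.21 with limma on log2(FPKM + 0.1), and -0.47 to -0.30 when a library was left out. The cause was not tested. Library totals in place of TMM factors moved the median of all genes to 0.11 and that of the members to -0.25, and limma on log2(FPKM + 0.1) moved the median of all genes to 0.13. None of the 18 named members changed sign in the 15 alternatives on gene sums in which it had a value. For most of them this says little. Some were named for their high or low fold changes in these same data. In most, the KO and control libraries did not overlap in CPM, so refitting the same counts or leaving out a single library could hardly have reversed the sign. Slc25a5, Slc25a13, Slc25a39, Slc25a43, Slc25a45 and Slc25a46 did overlap, and their sign could more readily have changed. Slc25a42 passed in 7 of these 15 alternatives, and Slc25a22 in 5. The difference in the log2 ratio of Slc25a4 to Slc25a5 was negative in all alternatives run, but these could hardly have changed its sign. Every KO library lay below every control library, so leaving out a single library could not reverse it. The other alternative, counts over transcript length, is nearly the same measure as FPKM. Deviations from the genotype mean correlated across genes at 0.31, -0.33 and -0.35 between same-numbered libraries. Between KO and control libraries of different number, the correlation ran from -0.52 (KO 2 with control 1) to 0.58 (KO 2 with control 3). The numbers were thus not taken to pair the libraries. Fewer libraries leave the test less power. In simulated counts 36 of 100 genes changed 2-fold were called, and members with few reads were not tested. The simulation changed only genes above a minimum mean CPM and held no deviation shared by the genes of a library. It thus does not give the power for tested members of low abundance.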

Other observations

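Within 100000 bases of each other lie 4 pairs of members, and in 2 of these pairs 1 gene had 0 reads in every library. Slc25a41 is 2057 bases from Slc25a23, and Slc25a54 is 6567 bases from Slc25a24. Slc25a29 and Slc25a47 are 15253 bases apart on chromosome 12, with log2 fold changes of -1.07 and -0.20. Slc25a43 and Slc25a5 are 18290 bases apart on the X chromosome, with 1.78 and -0.23. These 4 members did not pass the test.

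Several members with more than 1 transcript in the table had reads that went to a different transcript from library to library. For Slc25a44, the transcript of 3584 bases took 78.5%, 61.3% and 86.8% of the gene's reads in KO 1, 2 and 3, against 23.5%, 61.5% and 49.5% in control 1, 2 and 3. For Slc25a25, the transcript of 3175 bases took 39.5%, 41.3% and 51.4% in KO, against 0%, 32.1% and 41.4% in control. The groups overlapped for both. How reads shared by transcripts were divided is not stated in the sources used here.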
